A study of Mus musculus with 2 samples.

Results

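The tumour necrosis factor (TNF) ligand and receptor superfamilies and their adaptors were examined in RNA of mouse spleen. The genes were chosen by name: every probe set whose platform gene symbol begins with Tnfsf or Tnfrsf, the family members Tnf, Lta, Ltb, Ltbr, Fas, Fasl, Cd27, Cd70, Cd40, Cd40lg, Ngfr, Eda and Edar, and the adaptors Traf1 to Traf5, Tradd, Fadd and Ripk1. Of the 8251 genes named by a probe set of their own, 33 met this rule, through 41 probe sets. They comprised 12 ligands, 15 receptors and 6 adaptors. RefSeq's table for assembly GRCm38.p6 held 53 protein-coding genes with such names, and all 33 were among them. The other 20, among them the B cell survival factor Tnfsf13b, its receptors Tnfrsf13b and Tnfrsf13c, and the adaptors Traf3 and Ripk1, were not analysed here.

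The samples were 2 arrays hybridised with commercial total RNA of mouse spleen, a single group without a treatment or a control. Per the labels both started from the same catalogue item. Strain, age, sex and the number of animals behind the RNA are not given in the sources used here, so the spread between the arrays may be technical only. No test of a condition was possible, and no p-value is given.

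Ligands of the TNF family are mostly membrane proteins of immune cells that assemble as trimers and can be shed. Their receptors carry cysteine-rich repeats outside the cell, and inside it either a death domain, which recruits adaptors such as Tradd and Fadd, or short motifs that bind TRAF proteins and lead to NF-κB and kinase signalling. In the spleen, lymphotoxin signals are known to maintain the layout of the white pulp, and CD40 signals carry T cell help to B cells.

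Each array gave 1 signal intensity per probe set, on a linear scale in arbitrary units. A gene is called bright here when both of its signals exceed a cutoff, the 60th percentile of the respective array: 346 for array 1, 342 for array 2. The background came from 15 probe sets for bacterial genes, whose highest signal was 95 on array 1 and 76.2 on array 2. The label of the tissue was checked against defining markers: 5 of 5 measured B cell genes, 5 of 5 T cell genes, 5 of 5 macrophage genes and 2 of 2 genes of red cell precursors were bright, whereas 2 of 4 genes of stroma and vessels were. All 6 genes of pancreatic acinar cells were also bright, with signals from 2965.8 to 23276.2 on array 1. The highest signal there was 10333.1 among the B cell genes, 1155.4 among the T cell genes and 6213.1 among the macrophage genes. It was 12643.8 among the genes of red cell precursors. The brightest of these marker genes was therefore pancreatic, and the spleen markers do not show that the RNA came from spleen alone. Of the liver genes 2 of 3 were bright and of the brain genes 1 of 3, beside 45.2% of all named genes. The part of pancreatic RNA, or of RNA from any other organ, in the levels below was not tested. In a whole organ, fewer cells of a type and less RNA per cell cannot be told apart.

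The cutoff was passed by 13 of the 33 genes and by 45.2% of all named genes, so the family as a whole did not stand above the background share. The roles differed in their counts: 1 of 12 ligands, 7 of 15 receptors and 5 of 6 adaptors were bright. Both signals exceeded every bacterial control for 23 of the 33, against 73.9% of all named genes, and these were 6 ligands, 11 receptors and all 6 adaptors. The median log2 signal over the members was 7.85, beside 8.29 over all named genes. Probe sets differ in how well they bind, so genes are read against the cutoff and not ranked by signal.

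**Figure D1:**
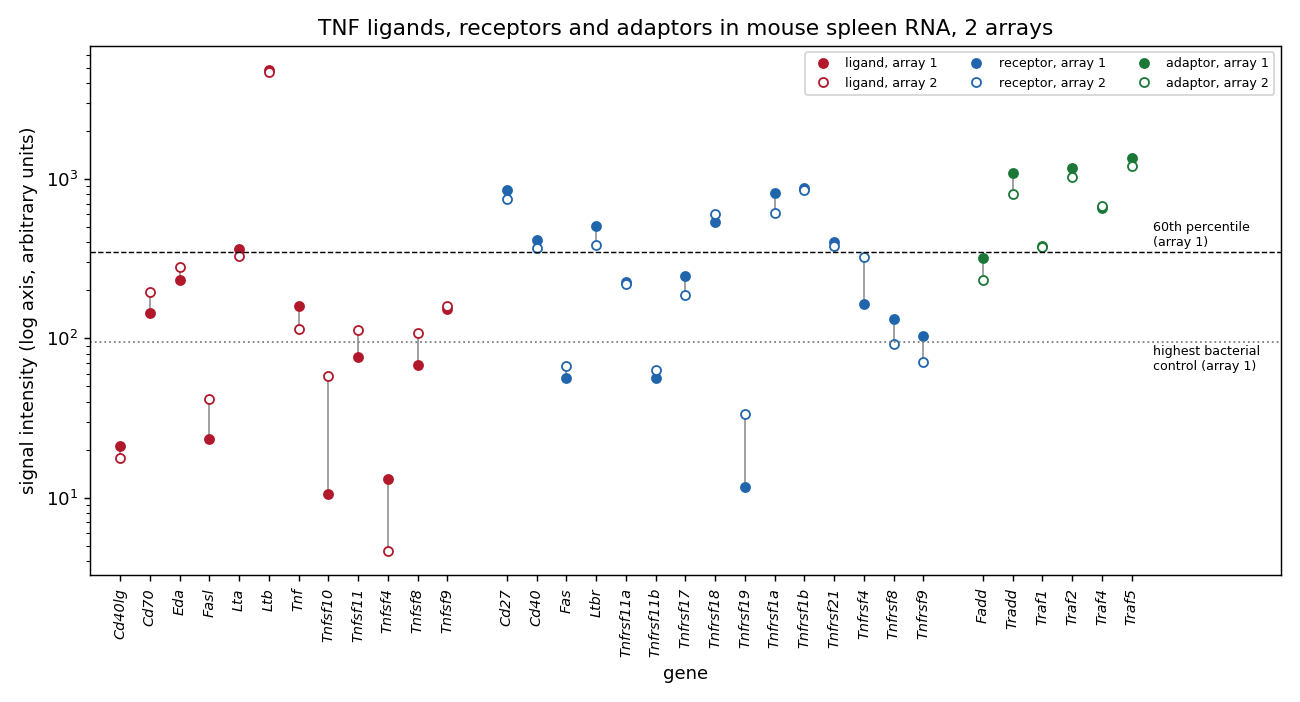
Signal intensity (log axis, arbitrary units) of each of the 33 genes, with array 1 as filled and array 2 as open circles, ligands in red, receptors in blue and adaptors in green. The dashed line is the 60th percentile of array 1 (346) and the dotted line its highest bacterial control (95). Among the 12 ligands with a probe set of their own, Ltb lies above the dashed line on both arrays and Lta on array 1 alone.

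**Figure D2:**
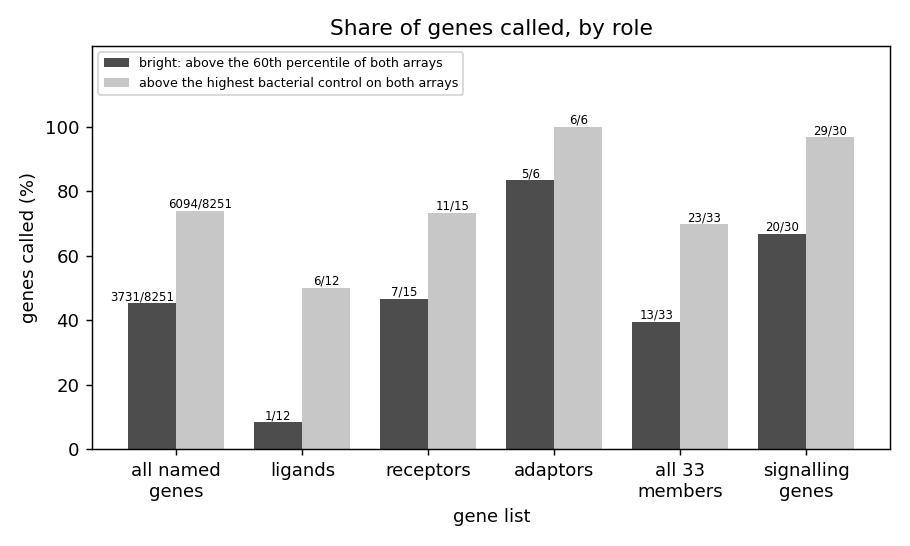
Percentage of genes that were bright (dark bars) and that exceeded every bacterial control on both arrays (light bars), for all named genes, the members by role, and the list of downstream signalling genes. The counts stand above the bars. The bright share was lowest in ligands, at 1 of 12, and highest in adaptors, at 5 of 6.

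Lymphotoxin beta was the ligand that was bright under the cutoff used. With the cutoff at the 50th percentile Lta and Eda passed as well, 3 of 12 ligands against 55.7% of all named genes. A probe set that names both Tnfsfm13 and Tnfsf12, and so belongs to no single gene, also exceeded the cutoff, at 455 on array 1 and 529.5 on array 2. Ltb, which encodes the membrane anchor of the lymphotoxin heterotrimer, gave 4839.5 on array 1 and 4688.8 on array 2, a mean of 4764 ± 107 (SD, n = 2 arrays here and below). These values were 13.97 and 13.7 times the cutoff, and the arrays differed by 1.03-fold. Its partner in that trimer, lymphotoxin alpha, was at the cutoff: Lta gave 361.3 on array 1, above it, and 329.1 on array 2, below it. On array 1 alone 2 ligands therefore passed the cutoff, against 47.6% of all named genes. The probe set used for Lta has the suffix _s_at, which marks several targets. The other probe set of Lta gave 262.6 and 275.7, below the cutoff on both arrays. Tnf, the founding cytokine of the family, gave 160.1 and 114.6, both below the cutoff and above the bacterial controls. Ltb, Tnf and Lta are direct neighbours on chromosome 17, so of 3 adjacent ligand genes 1 was bright on both arrays, 1 on a single array and 1 on neither.

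The 250 bases before the annotated start of each of these neighbours are shown because the genes lie side by side and differ in their call. Windows came from RefSeq, build GRCm38.p6, and were searched for the κB consensus, the degenerate 10-base motif bound by NF-κB, on both strands, and for TATAAA on the strand of the gene. Capitals mark a match. The Ltb window is chr17:35194257-35194506 on the plus strand, that of Tnf is chr17:35202008-35202257 on the minus strand and that of Lta is chr17:35205352-35205601 on the minus strand. A downstream start of the receptor gene Tnfrsf9, chr4:150927749-150927998 on the plus strand, is added because its window held overlapping κB matches although the gene was not bright.
Ltb: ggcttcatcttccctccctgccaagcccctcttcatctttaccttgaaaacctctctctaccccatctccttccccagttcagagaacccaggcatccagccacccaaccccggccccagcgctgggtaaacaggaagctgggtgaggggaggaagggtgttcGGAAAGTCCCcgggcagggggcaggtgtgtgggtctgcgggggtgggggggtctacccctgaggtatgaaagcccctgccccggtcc
Tnf: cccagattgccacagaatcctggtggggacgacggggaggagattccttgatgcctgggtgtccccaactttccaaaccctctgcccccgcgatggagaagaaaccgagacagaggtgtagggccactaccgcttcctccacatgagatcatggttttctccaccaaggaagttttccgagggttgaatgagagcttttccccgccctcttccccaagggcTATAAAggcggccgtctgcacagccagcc
Lta: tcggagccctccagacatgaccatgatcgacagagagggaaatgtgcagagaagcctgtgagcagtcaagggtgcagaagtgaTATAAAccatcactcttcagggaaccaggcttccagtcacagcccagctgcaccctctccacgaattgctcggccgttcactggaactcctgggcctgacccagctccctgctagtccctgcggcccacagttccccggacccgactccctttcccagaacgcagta
Tnfrsf9: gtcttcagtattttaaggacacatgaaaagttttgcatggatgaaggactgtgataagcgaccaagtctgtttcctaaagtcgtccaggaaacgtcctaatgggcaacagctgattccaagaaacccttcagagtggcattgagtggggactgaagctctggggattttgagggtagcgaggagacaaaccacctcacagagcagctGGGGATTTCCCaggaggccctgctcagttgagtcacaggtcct

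The Ltb window held 1 κB match, 87 to 78 bases before the start and on the opposite strand, and no TATAAA. The Tnf window held TATAAA 29 to 24 bases before the start, and the Lta window held it 167 to 162 bases before the start. Neither had a κB match in this window. Over the family, 26 of the 33 genes had a promoter window. A κB match was found in 1 of the 11 bright genes with a window (Ltb) and in 2 of the 15 others (Tnfrsf8 and Tnfrsf9), against 4.46% of all 27025 genes with a window. TATAAA was found in 3 of the 26, Tnf, Lta and Tnfrsf17, of which 0 were bright, against 8.94% of all genes. No member's window held both motifs. A match describes these letters and is not evidence of a bound factor.

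Ligands that costimulate T cells gave low signals. Cd70, the ligand of Cd27, gave 143.3 on array 1 and 195 on array 2, and Tnfsf9, which binds Tnfrsf9, gave 152.5 and 160.1. Both lay above the bacterial controls and below the cutoff on both arrays. Tnfsf8, the ligand of Tnfrsf8 (CD30), gave 68.4 and 108.5, and was above the controls on array 2 alone. Tnfsf4, the ligand of Tnfrsf4 (OX40), gave 13 and 4.6, no higher than the bacterial controls.

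Ligands known for T cell help and for killing were at background. Cd40lg, through which activated T cells signal to B cells, gave 21 and 17.7. Fasl, the death ligand of cytotoxic cells, gave 23.4 and 41.8. Tnfsf10, which encodes the death ligand TRAIL, gave 10.5 and 57.9. None of these 3 exceeded the bacterial controls on either array. The ratio of 5.51 between the arrays for Tnfsf10 has no weight, since both values were in the range of foreign probe sets and the value of array 1 was under the floor of 41.8.

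The remaining ligands were Tnfsf11 and Eda. Tnfsf11, which encodes RANKL, the inducer of osteoclasts, gave 76.1 and 112 and was above the controls on array 2 alone. Eda, the ectodysplasin of skin appendages, gave 233 and 281.5 with its brightest probe set. The other 2 probe sets of Eda gave 96 and 128.9, and 2.3 and 2.2, so the level given for this gene rests on the choice of probe set.

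Both receptors for TNF were bright. Tnfrsf1a, the death domain receptor that many cell types carry, gave 818.8 on array 1 and 609.1 on array 2, a mean of 714 ± 148. Tnfrsf1b, the TNF receptor without a death domain found mainly on blood cells, gave 874.2 and 858.4, a mean of 866 ± 11.2. Both receptors lay above the cutoff by more than the pooled SD of probe sets of their brightness. A dimmer probe set of Tnfrsf1a, whose suffix _r_at marks relaxed probe selection, gave 201 and 247.7 and was not bright.

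Ltbr, the receptor for the lymphotoxin heterotrimer, which stromal and myeloid cells carry, gave 506.2 and 384.9, a mean of 446 ± 85.8. It was bright on both arrays, but on array 2 it passed the cutoff by 0.17 on the log2 scale, less than the pooled SD of 0.248 for probe sets of its signal range. Cd27, a costimulatory receptor of T cells and of memory B cells, gave 848.8 and 754.5 through a probe set with the suffix _g_at. Its other probe set, without a suffix mark, gave 382.3 and 361.7, also bright on both arrays but nearer the cutoff. Cd27, Ltbr and Tnfrsf1a lie in 1 stretch of chromosome 6 with 1 other protein-coding gene between each pair of neighbours, Tuba3a and Scnn1a, and all 3 were bright.

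Cd40, the receptor of B cells and antigen-presenting cells for T cell help, gave 417 and 369, a mean of 393 ± 33.9. Tnfrsf21, a death domain receptor also called DR6, gave 399.7 and 380. Both were bright with a margin over the cutoff smaller than the pooled SD of their signal range. Tnfrsf18, which encodes GITR, a receptor abundant on regulatory T cells, gave 537.9 and 605.8 and cleared the cutoff by more than that SD. Its neighbour on chromosome 4, Tnfrsf4, gave 163.3 on array 1 and 325.2 on array 2 and was below the cutoff on both. Tnfrsf4, or OX40, is a receptor of activated T cells.

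The remaining receptors were not bright. Fas, the receptor for the death ligand, gave 56.7 and 67.5, under the brightest bacterial control of each array, through a probe set whose suffix _s_at marks several targets. A control probe set annotated to Fas, which the rule leaves out, gave 189.3 and 209.7, so the level of Fas depends on the probe set. Tnfrsf17, which encodes BCMA, a receptor of plasma cells, gave 245.2 and 187.9, and Tnfrsf11a, the receptor RANK, gave 224.4 and 220.4. Tnfrsf8 gave 133.2 and 91.9, above the controls on both arrays and far below the cutoff. It adjoins Tnfrsf1b, which was bright, on chromosome 4. Tnfrsf9, a receptor induced on activated T cells, gave 103.1 and 71.4 and was above the controls on array 1 alone. Tnfrsf11b, the soluble decoy receptor osteoprotegerin, gave 56.6 and 63.4, and Tnfrsf19, or TROY, gave 11.7 and 33.3. Tnfrsf11b and Tnfrsf19 did not exceed the bacterial controls.

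By type of receptor, 2 of 3 with a death domain were bright and 5 of 11 without one, the latter at the 45.2% of all named genes, and the difference between the types was not tested. The single soluble receptor measured was not bright. Among neighbouring members of the family with both genes measured, 4 of 7 pairs had the same call. That is near the 55% found over all pairs of named genes with at most 1 protein-coding gene between them. The 3 pairs with different calls were Ltb and Tnf, Tnfrsf1b and Tnfrsf8, and Tnfrsf4 and Tnfrsf18.

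Adaptors were the role with the largest share of bright genes. Traf2, a scaffold that receptors of both classes use to reach NF-κB, gave 1168.5 and 1025.8, a mean of 1097 ± 101. Traf5, a related scaffold, gave 1355.9 and 1213.7, a mean of 1285 ± 101. Traf4 gave 661.8 and 677.1 with the probe set used and 658.2 and 592.8 with its other probe set, so both of its probe sets were bright. Traf1, which lacks the RING domain of the other TRAF proteins and is induced by NF-κB, gave 379.2 and 373.9. The values of Traf1 were close between the arrays, yet its margin over the cutoff was smaller than the pooled SD of its signal range.

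The death domain adaptors differed in their call. Tradd, which couples Tnfrsf1a to TRAF proteins, gave 1095.8 and 803.5, a mean of 949.7 ± 207, through a probe set with the suffix _r_at. Fadd, which couples death receptors to Casp8, gave 317.6 and 231.9, a mean of 275 ± 60.6, and was not bright. On array 1 Fadd came within 0.12 of the cutoff on the log2 scale, less than the pooled SD of its range. Fadd was above the bacterial controls on both arrays.

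Taking the calls with their error, 9 of the 13 bright members cleared the cutoff by more than the pooled SD of their signal range: Ltb, Tnfrsf1a, Tnfrsf1b, Cd27, Tnfrsf18, Traf2, Traf4, Traf5 and Tradd. The other 4, Ltbr, Cd40, Tnfrsf21 and Traf1, were within it. Of the members that were not bright, 4 came within the pooled SD of their own signal range on at least 1 array: Lta, Fadd, Tnfrsf4 and Tnfrsf17. This is not 1 fixed distance. Tnfrsf17 counts with a log2 margin of -0.50, because the SD of its range was 0.511. Eda was nearer the cutoff, at -0.28, but the SD of its range was 0.248. For genes that were not bright, the margin is that of the array with the higher ratio to the cutoff, although a bright call needs both arrays. On the other array the signal was 0.96 times the cutoff for Lta, 0.68 for Fadd and 0.55 for Tnfrsf17 (array 2), and 0.47 for Tnfrsf4 (array 1). With the cutoff lowered to the 50th percentile 16 members passed, against 55.7% of all named genes. With it raised to the 75th percentile 7 members passed, against 28.5%, and these were Ltb, Cd27, Tnfrsf1b, Traf2, Traf4, Traf5 and Tradd.

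Ligands and receptors were then set beside each other as 25 known pairs, of which 13 had both genes measured. In 1 pair, Ltb with Ltbr, both partners were bright. In 6 pairs the receptor alone was bright: Tnf and Lta, each with Tnfrsf1a and with Tnfrsf1b, Cd40lg with Cd40, and Cd70 with Cd27. In the other 6, Tnfsf4 with Tnfrsf4, Fasl with Fas, Tnfsf8 with Tnfrsf8, Tnfsf9 with Tnfrsf9, and Tnfsf11 with Tnfrsf11a and with Tnfrsf11b, neither was. Pairs share genes and are not independent of each other. Ltb, the bright ligand, stands in 1 measured pair, so these counts restate the calls by role. No share over all possible pairs of genes was computed. On array 1 alone 3 pairs had both partners bright, because Lta then passed the cutoff with its probe set of suffix _s_at.

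Some genes were read by several probe sets. Of the 33 members 7 had more than 1: Cd27, Eda, Lta, Tnfrsf1a, Tnfrsf8, Tnfrsf9 and Traf4. The call was the same with every probe set of Cd27 and Traf4 (bright) and of Eda, Lta, Tnfrsf8 and Tnfrsf9 (not bright). It differed for Tnfrsf1a alone. The second probe set of Lta gave 262.6 and 275.7, that of Tnfrsf8 gave 46.5 and 22.7, and that of Tnfrsf9 gave 18.3 and 16.2.

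**Figure D3:**
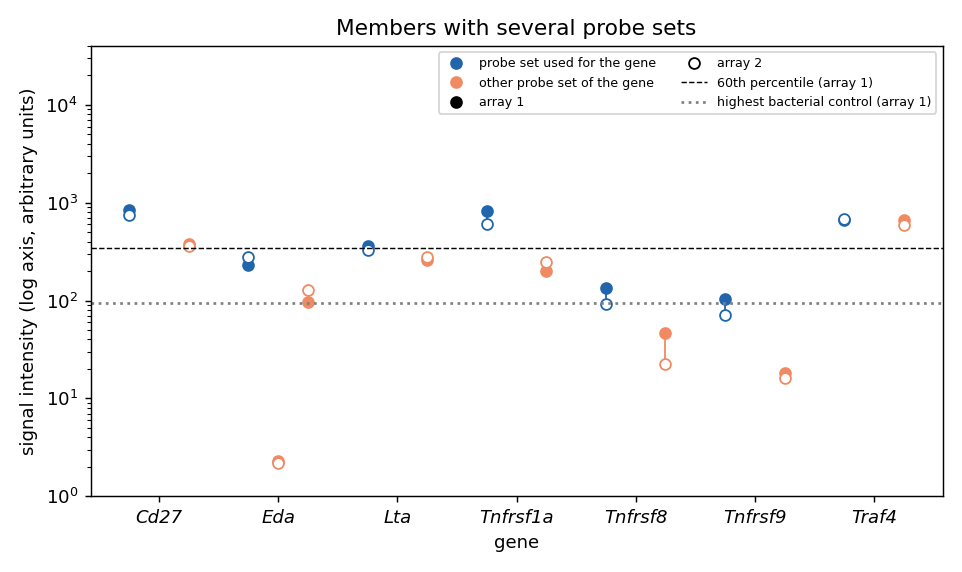
Signal intensity (log axis, arbitrary units) of each probe set of the 7 members with more than 1, with the probe set used for the gene in blue and the others in orange, array 1 filled and array 2 open. The dashed line is the 60th percentile of array 1 (346) and the dotted line its highest bacterial control (95). Tnfrsf1a is the gene whose probe sets lie on different sides of the dashed line on both arrays.

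The difference between the arrays was small for bright members. Over the 13 bright members the pooled SD of a single log2 signal, taken from the differences between the arrays, was 0.163, or 12.0% of the signal, beside 0.152 over all 3731 bright genes. None of the 13 differed by more than 2-fold after centring, against 0.107% of bright named genes. Of all 33 members, dim ones included, 0 differed by more than 2-fold with values under 41.8 raised to it, against 4.67% of all named genes. Tnfrsf4 came nearest, with a centred log2 difference of 1.00. That was 2.84 times the SD of a difference expected from the pooled SD of its signal range. The ratio depends on where that range ends. Tnfrsf4 had a mean signal of 244, and Tnfrsf11a, at 222, already fell in the next dimmer range. The pooled SD was 0.511 in that dimmer range, beside 0.248 in the range of Tnfrsf4. The other members furthest apart among those above the controls on both arrays were Tnfrsf8 at -0.53, Tnf at -0.48, Fadd at -0.45, Tradd at -0.45, Cd70 at 0.45 and Tnfrsf1a at -0.43, all as log2 differences of array 2 minus array 1.

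Most bright members read higher on array 1. After centring 11 of the 13 were higher there, against 50.1% of bright named genes, with a median log2 difference of -0.16 and the largest, that of Tradd, at -0.45. The exceptions were Tnfrsf18 at 0.17 and Traf4 at 0.03. The count was 10 with quantile normalization and 11 with loess. The genes of a list are not replicates, and this count has no test.

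**Figure D4:**
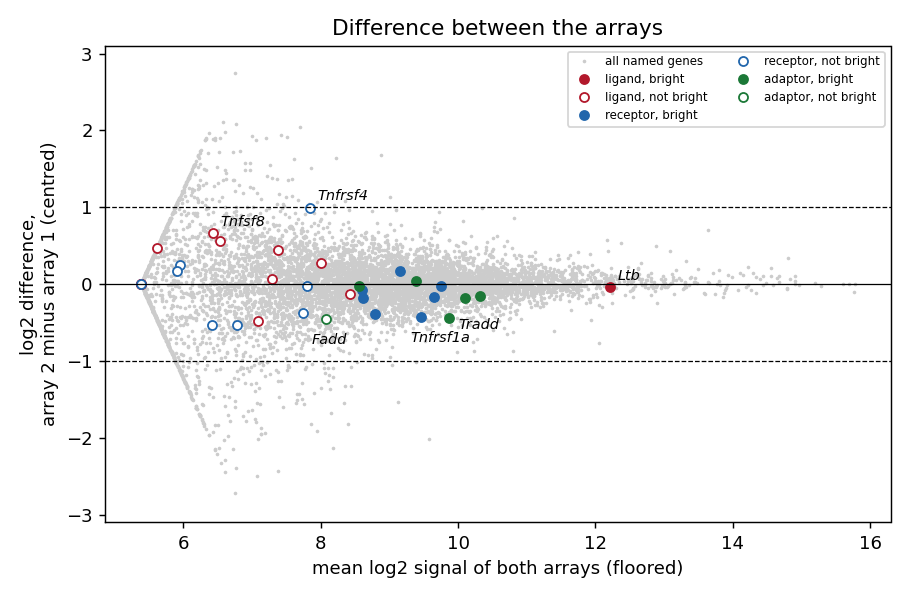
Centred log2 difference between the arrays (array 2 minus array 1) against the mean log2 signal, for all named genes in grey and the members by role, bright members filled. Dashed lines mark a 2-fold difference and all 33 members lie within them, with Tnfrsf4 at 1.00. Values below 41.8 were raised to it, which draws the slanted edges at the left.

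Signalling genes downstream of the receptors, none of them members, were listed separately. Of 42 listed, 30 were measured and 20 of these passed the cutoff, beside the 45.2% given above. Of the 30, 29 exceeded the bacterial controls on both arrays. The ubiquitin ligases and their regulators were bright in 6 of 8 cases, among them Traf6 at 476 ± 0.495, and the inhibitors of apoptosis Birc2 at 975 ± 49.9 and Birc3 at 1032 ± 113, which bind Traf2. Rbck1, a subunit of the linear ubiquitin ligase, gave 2382 ± 127, Tank, which binds TRAF proteins, gave 481.5 ± 98.0 and Tnip1, a partner of Tnfaip3, gave 1218 ± 67.5. The ubiquitin editor Tnfaip3, at 271 ± 15.8, and Xiap, at 194 ± 9.33, were not bright.

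Kinases and subunits of their complexes were bright in 4 of 9 cases, at the 45.2% of all named genes, including Tab2, a subunit of the Map3k7 complex, at 2535 ± 118 and the IκB kinase Ikbkb at 479.8 ± 56.8. Map3k7 gave 161 ± 28.7, Map3k5 gave 214 ± 36.4, Ikbkg gave 312 ± 13.6, Map2k4 gave 207 ± 18.6 and Mapk9 gave 163 ± 1.20, and these 5 were not bright. Of the NF-κB proteins 5 of 7 were bright. The 2 that were not were the subunit Rel, at 9.6 on array 1 and 30.7 on array 2 and so at background, and the inhibitor Nfkbie, at 424.2 and 315.9, above the cutoff on array 1 alone. All 4 measured cell death genes, Casp8, Cflar, Bid and Daxx, were bright. Of the proteases that shed TNF family proteins, Adam10 was bright and Adam17, which releases soluble TNF, gave 152 ± 42.1 and was not.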

How the data were processed

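RNA was measured on 2 arrays of 12488 probe sets. The deposited values are signal intensities on a linear scale. Both arrays appear to have been scaled to a common mean before deposit. Without the lowest and highest 2% of probe sets the mean was 500.265 on array 1 and 500.278 on array 2. The software and the detection calls are not given in the sources used here. Precision is limited by having 2 arrays. Gene names came from the platform annotation. The 66 AFFX probe sets were left out of percentiles. Of the other 12422, 10833 named 1 gene, 396 several and 1193 none. Of several single-gene probe sets, a gene took the one whose mean log2 signal was highest. Intensities were floored at the 20th percentile of their array (41.8 on each) and log2-transformed. Differences were centred on the median of bright probe sets. The pooled SD of a single log2 signal came from these differences, overall and in 4 groups of probe sets of equal size by mean signal.

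The members, role lists, pairs and signalling list were chosen with earlier results of these data known. All measured members are named. Of the signalling list, the genes that were not bright and up to 8 bright ones in list order are named with a mean or both values, and bright ones of the cell death and shedding groups were named after their values were seen. Motif matches were searched after the values were seen. Alternatives changed 1 choice at a time: the cutoff, the probe set rule, each array alone, the floor, a pseudocount of 16, and normalization. The pooled SD and the 2-fold rule were tested on simulated data, with loess. The values given in the text were centred without loess, so that test does not cover them directly. The simulation also gave all probe sets the same SD, whereas the pooled SD was 0.145 in the brightest and 0.511 in the third of the 4 signal groups. The counts by role, of pairs, of neighbours and of motif matches were not tested on simulated data. Calculations ran in Python 3.11.15 (pandas 2.3.3 and numpy 2.4.6), loess in statsmodels 0.14.6, ranks in scipy 1.17.1 and plots in matplotlib 3.10.9.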

Additional observations from a re-analysis of the deposited data

Results flagged for a closer look

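Signal was found for family members outside the gene values. The probe set that names both Tnfsfm13 and Tnfsf12, a pair of overlapping ligand genes, entered no gene value because it cannot be assigned to 1 of them. It gave 455 on array 1 and 529.5 on array 2, above the highest bacterial control of 95 and 76.2 and above the brightness cutoff on both arrays. The manufacturer's control probe set annotated to Fas, which the rule left out, gave 189.3 on array 1 and 209.7 on array 2, above the highest bacterial control on both. The probe set used for Fas gave 56.7 and 67.5, below it. Probe sets differ in sequence, so these levels are given side by side without an order.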

How the results depend on the processing

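Counts depended most on the brightness cutoff. With the cutoff at the 75th percentile 7 members, 2 receptors, 11 signalling genes and 0 pairs passed, beside 28.5% of all named genes, and 6 of the 7 bright members were higher on array 1. With the 50th percentile 3 ligands (Ltb, Lta and Eda) and 3 pairs passed, beside 55.7% of all named genes. With the brightest bacterial control as the cutoff 23 members, 6 ligands, 11 receptors and 6 pairs passed, beside 73.9%. These percentages are of single genes and are no measure for the pairs. Probe sets that name several genes raised the bright ligands to 3 of 14, beside 47.01% of all named genes, by counting the 1 probe set of Tnfsfm13 and Tnfsf12 for both of these genes. On each array alone the bright ligands were 1 to 2 and the bright pairs 1 to 3. Without the brightness filter the pooled SD was 0.252 over all members, beside 0.3055 over all named genes. The median log2 signal of the members was 7.95 with a pseudocount of 16, 7.80 when a gene's probe sets were averaged, and 7.857 to 7.864 on each array alone. The other alternatives left these counts within 1.5 times of the value given, and 6 members, Cd27, Ltb, Tnfrsf1b, Traf2, Traf4 and Traf5, were bright under the 75th percentile, the mean over probe sets, both changes of the probe sets used and each array alone. Tradd was bright in all of these settings except the one without suffix-marked probe sets, which left out its only probe set. No paired analysis was possible because there was 1 group.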
